A study of Homo sapiens with 3 samples.

Results

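The clustered protocadherins were described in parental MM468 cells and in the 2 drug-resistant lines made from them. A gene was a member when it was annotated as protein coding and its symbol started with PCDHA, PCDHB or PCDHG followed by a digit, A, B or C. The rule used names only and found 53 of the 46427 genes in the table. Of these, 15 belong to the alpha cluster, 16 to the beta cluster and 22 to the gamma cluster. The line MDA-MB-468, here MM468, was derived from a triple-negative breast cancer (TNBC). Adriamycin-resistant cells are the survivors of adriamycin at 10 to 140 nM, and paclitaxel-resistant cells those of paclitaxel at 2 to 320 nM. Parental cells received neither drug, and the labels give all 3 lines as wild type. Whether a resistant line is 1 clone or a mixture of survivors is not given in the sources used here. Each line gave 1 RNA library.

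Protocadherins are calcium-dependent adhesion proteins of the cadherin superfamily. The clustered genes lie in tandem on chromosome 5 and are best known from neurons, where each cell uses a small set of them and the set gives the cell a surface identity through binding between like proteins. In the alpha and gamma clusters each member has its own first exon, which encodes the outer part of the protein and the membrane span, and is spliced to constant exons that encode a shared inner end. Beta members have a single coding exon and no constant exons. Each first exon has its own promoter, and most of these promoters hold a conserved element bound by CTCF, a protein that with cohesin joins promoters to distant enhancers. The last members of the alpha and gamma clusters, named AC1, AC2, GC3, GC4 and GC5 after PCDH, are the C-type genes.

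The layout could be followed in the annotation. In RefSeq on GRCh38.p14, all members lie on the plus strand of chromosome 5, from PCDHA1, which starts at 140786140, to the common end of the gamma genes at 141512975. All alpha entries end at 141012347. In the GENCODE v29 transcripts of GRCh38, every beta member has 1 exon, and the longest transcript has 4 exons in 12 of 15 alpha members and in 18 of 22 gamma members. The end that an alpha transcript shares with another alpha transcript has a median length of 2868 bases, and for gamma it is 2184 bases. Of all 75-base stretches in a member's transcripts, a median of 46.5% also occurs in another member for alpha, 43.4% for gamma and 8.74% for beta. How the counting treated reads from such stretches is not given in the sources used here. Counts of alpha and gamma members are therefore uncertain between members of 1 cluster, while most beta sequence belongs to 1 gene.

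The libraries held 32704885 counts in parental MM468, 47567927 in adriamycin-resistant and 43242628 in paclitaxel-resistant cells. Counts were scaled with edgeR's TMM method over genes with 10 or more counts in at least 1 library, and a level is given as scaled CPM (counts per scaled library of 1000000). With 1 library per line there is no SD, no test and no p-value, and no difference here has a replicate check. The 95% intervals are exact binomial intervals for the ratio of a pair of counts, and they reflect counting error alone. A count of 0 allows up to 3 counts, which is a scaled CPM of 0.0967 in the parental library, 0.0661 in adriamycin-resistant and 0.0627 in paclitaxel-resistant cells. The 9 epithelial and basal-like breast markers had summed TPM values (deposited levels per transcript length, scaled to 1000000 per library) of 9119, 9544 and 9392 in parental, adriamycin-resistant and paclitaxel-resistant cells. Of these 9, only KRT14, a basal keratin, passed 2-fold, from 97.0 in parental to 14.0 and 15.9 TPM. The 6 neuronal markers summed to 0.511, 0.620 and 1.41, with STMN2 and GAP43 at 0 counts in all 3 libraries. SNAP25 had 0, 0 and 21 counts, and SYN1, SYP and RBFOX3 had 30 or fewer in each library. The 6 fibroblast markers summed to 7.84, 13.3 and 7.92, with LUM and COL1A2 at 0 counts throughout. COL1A1 had 659, 1629 and 820 counts, COL3A1 2, 0 and 21, DCN 0, 0 and 14, and PDGFRB 0, 7 and 0. The part of these marker differences in the levels of the members was not tested. In bulk RNA, fewer cells that use a gene and less of its RNA per cell cannot be told apart.

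Clustered protocadherins were a small part of the RNA in all 3 lines. They held 5654 counts in parental MM468, 13984 in adriamycin-resistant and 7993 in paclitaxel-resistant cells, and their TPM values summed to 94.8, 153 and 112. A typical member was low, with a median TPM of 0.579, 0.944 and 0.868, against 6.41, 5.90 and 7.67 over all protein-coding genes. Of the 53 members, 50 reached 10 counts in at least 1 library and were compared. The other members are all of the alpha cluster. PCDHA6 and PCDHA9 had 8 counts or fewer in every library, and PCDHA8 had 0 counts in all 3.

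**Figure D1:**
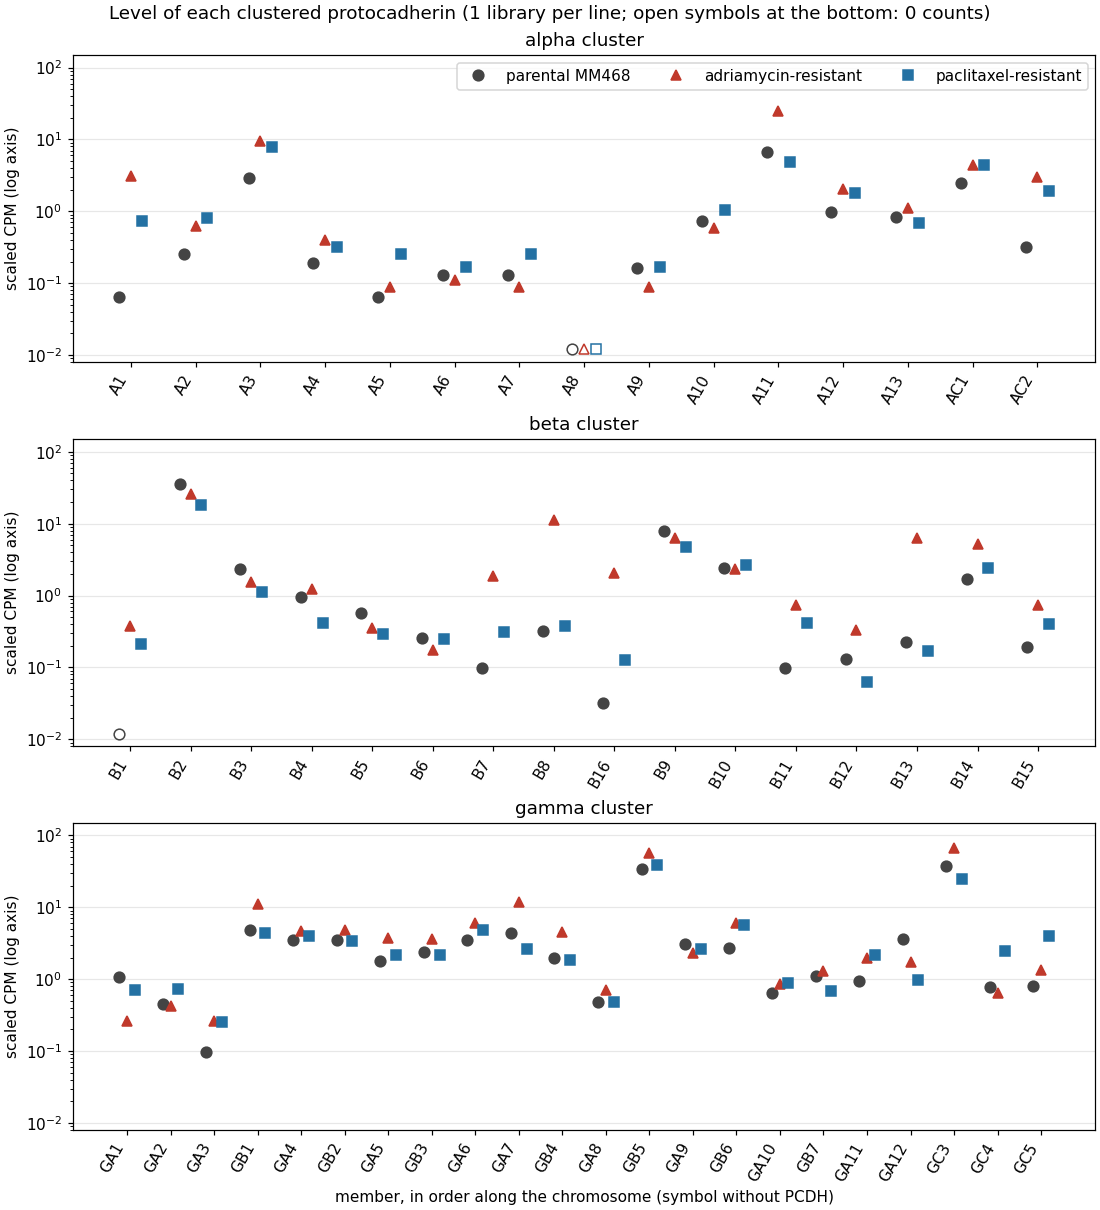
Level of each of the 53 members in scaled CPM on a log axis, in chromosome order, for parental MM468 (circles), adriamycin-resistant (triangles) and paclitaxel-resistant cells (squares), with 1 library each and open symbols at the bottom for 0 counts. PCDHB2, PCDHGB5 and PCDHGC3 are high in every line, while PCDHB7, PCDHB8, PCDHB13 and PCDHB16 stand well above the other lines in adriamycin-resistant cells.

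In adriamycin-resistant cells, more members were higher than lower against parental cells. Among the 50 members compared, a level 2-fold or more above parental was found for 23, and one 2-fold or more below it for 2. Over all 19561 genes compared, 12.2% lay this far above parental and 12.0% this far below. The 23 were 7 alpha, 9 beta and 7 gamma members, and both lower members, PCDHGA1 and PCDHGA12, were gamma genes. The median log2 fold was 0.80 over the members and 0.01 over all genes compared. For 12 members the whole counting interval, or the lower bound, lay above 2-fold. With genes kept only at 100 or more counts, 13 of 27 members passed 2-fold upward and 1 downward, where 7.03% and 8.25% of all 13904 such genes did. Relative to the genes beside the clusters, which were themselves higher in adriamycin-resistant cells, 12 members passed 2-fold upward and 8 downward.

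In paclitaxel-resistant cells the members were more evenly divided. Against parental cells, 15 of 50 lay 2-fold or more above and 4 this far below, where the whole table had 20.6% higher and 13.7% lower. The median log2 fold was 0.26 over the members and 0.07 over all genes compared. The 15 were 5 alpha, 5 beta and 5 gamma members. The 4 lower members were PCDHB3, PCDHB4, PCDHB12 and PCDHGA12. The split moved with the scaling, to 18 higher and 1 lower by library size alone. Both comparisons use the same parental library, so a high or low count there enters both.

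**Figure D2:**
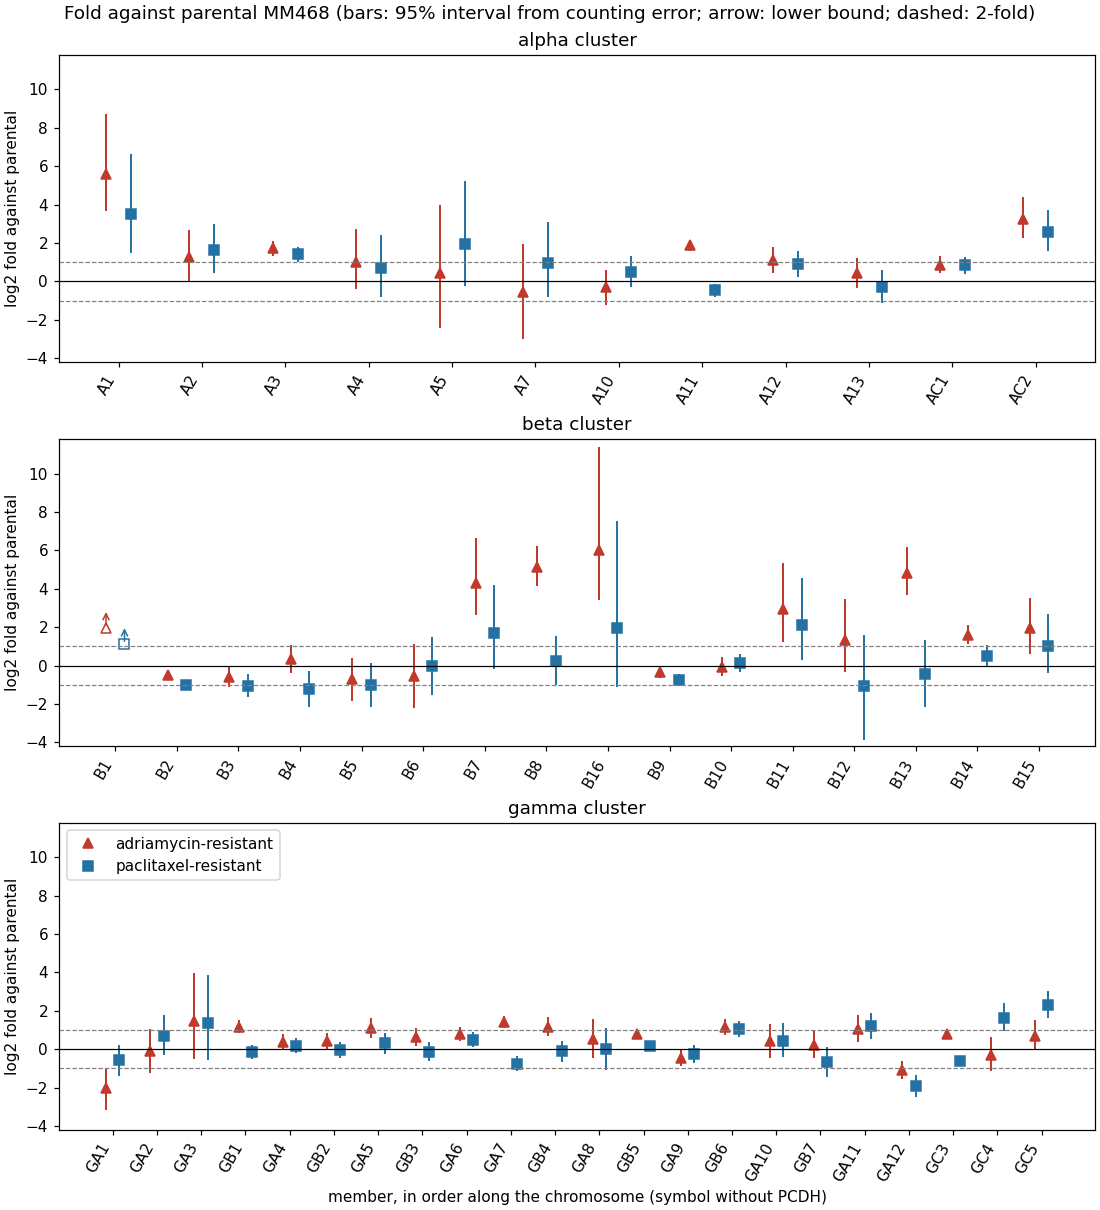
Log2 fold of adriamycin-resistant (triangles) and paclitaxel-resistant (squares) against parental MM468 cells for the 50 members compared, with 95% counting intervals as bars, arrows for lower bounds against a count of 0, and dashed lines at 2-fold. The widest bars belong to members with few parental counts, such as PCDHB16 with 1 and PCDHA1 with 2.

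Of the 3 clusters, alpha had the largest fold as a sum in adriamycin-resistant cells. It held 495 counts in parental MM468, 2267 in adriamycin-resistant and 1201 in paclitaxel-resistant cells. Scaled, it was 3.13-fold higher in adriamycin-resistant cells (95% interval 2.84 to 3.46) and 1.57-fold higher in paclitaxel-resistant cells (1.42 to 1.75). PCDHA11, the alpha member with the most counts, had 208 counts in parental, 1113 in adriamycin-resistant and 233 in paclitaxel-resistant cells. It was 3.66-fold higher in adriamycin-resistant cells (3.15 to 4.26) and 1.38-fold lower in paclitaxel-resistant cells (1.14 to 1.67). PCDHA3 had 91, 438 and 371 counts and was high in both resistant lines, by 3.29-fold (2.62 to 4.17) in adriamycin-resistant and 2.64-fold (2.10 to 3.36) in paclitaxel-resistant cells. So the alpha members did not share 1 pattern.

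PCDHA1, which holds the most upstream position of all members, was close to absent in parental cells. It had 2 counts there, 142 in adriamycin-resistant and 35 in paclitaxel-resistant cells. The ratio was 48.5 in adriamycin-resistant cells, with an interval from 13.2 to 405, and 11.4 in paclitaxel-resistant cells, with an interval from 2.92 to 97.4. PCDHA12 had 30, 94 and 86 counts and was 2.14-fold higher in adriamycin-resistant cells (1.41 to 3.35) and 1.86-fold higher in paclitaxel-resistant cells (1.21 to 2.92). Of the low alpha members, PCDHA4, PCDHA5 and PCDHA7 had 18 counts or fewer in every library. All of their intervals against parental cells included no change.

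Which member led the alpha cluster also differed. PCDHA11 held 42.0% of the cluster's counts in parental and 49.1% in adriamycin-resistant cells, but 19.4% in paclitaxel-resistant cells (exact 95% interval 17.2 to 21.7). PCDHA3 led there with 30.9%. Per length the order was the same. In paclitaxel-resistant cells PCDHA3 had a TPM of 3.98 and PCDHA11 of 2.47, whereas in adriamycin-resistant cells they had 3.96 and 9.21.

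In the beta cluster, 4 genes that were near 0 in parental cells were clearly present in adriamycin-resistant cells. PCDHB8 had 10 counts in parental, 507 in adriamycin-resistant and 18 in paclitaxel-resistant cells, and was 34.7-fold higher in adriamycin-resistant cells (18.7 to 72.7). PCDHB13 had 7, 286 and 8 counts, which is 27.9-fold higher in adriamycin-resistant cells (13.4 to 70.1). The levels of both in paclitaxel-resistant and parental cells lay within counting error of each other. PCDHB7 had 3, 86 and 15 counts, with a ratio of 19.6 in adriamycin-resistant cells (6.48 to 96.9). PCDHB16 had 1, 94 and 6 counts, with a ratio of 64.2 (11.3 to 2564). PCDHB7, PCDHB8 and PCDHB16 are neighbours, and 4 members lie between PCDHB16 and PCDHB13. These 4 were picked out after their values were seen. Together they held 21, 973 and 47 counts, which was 1.27% of the beta counts in parental, 32.3% in adriamycin-resistant and 3.07% in paclitaxel-resistant cells.

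The other 12 beta members were not higher as a sum. They held 1631 counts in parental, 2042 in adriamycin-resistant and 1485 counts in paclitaxel-resistant cells, which scaled to 1.17-fold lower in adriamycin-resistant cells (1.10 to 1.25) and 1.69-fold lower in paclitaxel-resistant cells (1.58 to 1.82). PCDHB2, the beta member with the highest TPM in all 3 lines, had 1120, 1166 and 865 counts. It was 1.41-fold lower in adriamycin-resistant cells (1.29 to 1.53) and 2.00-fold lower in paclitaxel-resistant cells (1.83 to 2.19), just short of the 2-fold mark. PCDHB9 had 242, 284 and 223 counts and was also lower in both lines. PCDHB10 had 75, 106 and 128, and its intervals included no change in both. PCDHB3 had 72, 71 and 54 counts and was 2.06-fold lower in paclitaxel-resistant cells (1.43 to 2.98). PCDHB4, with 30, 56 and 20 counts, was 2.31-fold lower there (1.27 to 4.30). PCDHB14, with 53, 235 and 117 counts, was 3.03-fold higher in adriamycin-resistant cells (2.24 to 4.16).

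More beta members were detected in the resistant lines. PCDHB1 had 0 counts in parental, 17 in adriamycin-resistant and 10 in paclitaxel-resistant cells. Against the 3 counts that a count of 0 allows, it was at least 3.87-fold higher in adriamycin-resistant and at least 2.16-fold higher in paclitaxel-resistant cells. PCDHB11 went from 3 parental counts to 34 and 20, and PCDHB15 from 6 to 34 and 19. Counting members with 10 or more counts, the beta cluster had 8 in parental, 15 in adriamycin-resistant and 13 in paclitaxel-resistant cells. For alpha the numbers were 7, 10 and 12, and for gamma 21, 22 and 22. The parental library had the fewest counts in total. At a CPM of 0.3 or more, which allows for library size, the beta numbers were 8, 15 and 11, the alpha numbers 7, 10 and 10, and the gamma numbers 21, 20 and 21.

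The beta promoters share a short element, and both beta genes that were far higher in adriamycin-resistant cells and beta genes that were not hold it. RefSeq promoters of 300 bases, 250 before and 50 after the annotated start, were at hand for 47 members, 14 of them beta. GGTGGCGCT, searched on both strands and chosen after the beta promoters had been read, was found in 13 of these 14 and not in PCDHB1. It contains the shorter CGCT, which 70.0% of all promoters hold, and 12 of 13 alpha, 14 of 14 beta and 20 of 20 gamma genes. GGCGCT was in 1 of 13 alpha, 13 of 14 beta and 9 of 20 gamma genes, and in 21.6% of promoters outside the clusters. The full GGTGGCGCT was in 0 of 13 alpha genes, 0 of 20 gamma genes and 0.465% of 35064 promoters outside the clusters. Since its letters were taken from beta promoters, its absence from alpha and gamma does not show that those lack a related element. The lines that follow give 55 bases around it, plus strand of GRCh38.p14, with the element in capitals, for PCDHB7, PCDHB8, PCDHB16 and PCDHB13 and then for PCDHB2 and PCDHB9, which had high counts in all 3 lines. They lie at chr5:141172554-141172608, chr5:141177765-141177819, chr5:141182298-141182352, chr5:141213853-141213907, chr5:141094532-141094586 and chr5:141187062-141187116, in that order.
PCDHB7: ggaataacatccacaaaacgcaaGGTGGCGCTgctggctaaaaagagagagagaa
PCDHB8: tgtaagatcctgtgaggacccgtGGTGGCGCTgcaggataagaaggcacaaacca
PCDHB16: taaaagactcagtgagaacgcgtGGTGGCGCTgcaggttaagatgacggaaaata
PCDHB13: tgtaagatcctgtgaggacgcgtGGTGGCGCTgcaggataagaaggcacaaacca
PCDHB2: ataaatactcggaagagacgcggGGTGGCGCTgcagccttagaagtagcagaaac
PCDHB9: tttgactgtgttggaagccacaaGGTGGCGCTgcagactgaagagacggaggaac

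The element starts 60 bases before the annotated start in PCDHB2, 67 in PCDHB7, 66 in PCDHB16, 76 in PCDHB9, 43 in PCDHB13 and 2 in PCDHB8. The promoters of PCDHB8 and PCDHB13 are near copies, with 243 of 259 aligned bases identical (93.8%). No other of the 91 beta pairs had more than 118 identical bases. The transcripts are alike too. PCDHB8 shares 25.1% of its 75-base stretches with PCDHB13, and PCDHB13 shares 13.4% with PCDHB8. Part of the counts of this pair could therefore belong to either gene, whereas PCDHB7 and PCDHB16 share 5.12% and 8.44% with any other member. These matches describe the sequence. Binding at these promoters was not measured.

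Gamma had the most counts of the 3 clusters in every line. It held 3507 counts in parental, 8702 in adriamycin-resistant and 5260 in paclitaxel-resistant cells. It was 1.70-fold higher in adriamycin-resistant cells (1.63 to 1.76). In paclitaxel-resistant cells its level was 0.973 of parental (0.932 to 1.02) on scaled counts and 1.28 of parental on summed TPM, so the direction depended on the scale. PCDHGB5 and PCDHGC3 together dominated all 3 lines. PCDHGB5 had 1042, 2609 and 1830 counts, 1.71-fold higher in adriamycin-resistant cells (1.59 to 1.84) and 1.14-fold higher in paclitaxel-resistant cells (1.06 to 1.23). PCDHGC3 had 1168, 3008 and 1183 counts, 1.76-fold higher in adriamycin-resistant cells (1.64 to 1.88) and 1.52-fold lower in paclitaxel-resistant cells (1.40 to 1.65). By TPM, PCDHGC3 was the higher of the pair in parental and adriamycin-resistant cells, with 17.0 and 30.1, and PCDHGB5 in paclitaxel-resistant cells, with 23.5.

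Among the gamma members with their own first exons of types A and B, PCDHGA7 differed in opposite directions in the resistant lines. It had 137, 535 and 126 counts, 2.67-fold higher in adriamycin-resistant cells (2.21 to 3.24) and 1.68-fold lower in paclitaxel-resistant cells (1.31 to 2.15). PCDHGB1, with 151, 502 and 207 counts, was 2.27-fold higher in adriamycin-resistant cells (1.89 to 2.74) and had an interval that included no change in paclitaxel-resistant cells. PCDHGB6, with 84, 273 and 267 counts, was 2.22-fold higher in adriamycin-resistant cells (1.73 to 2.87) and 2.06-fold higher in paclitaxel-resistant cells (1.61 to 2.67). PCDHGA11 had 29, 89 and 103 counts and was 2.10-fold and 2.30-fold higher. PCDHGA5, with 55, 171 and 105, and PCDHGB4, with 62, 206 and 89, were at least 2-fold higher in adriamycin-resistant cells by counts, while their TPM folds were 1.56 and 1.32. PCDHGA6, the last of the 6 gamma members with the most counts, had 107, 271 and 233, and was under 2-fold higher in both lines.

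PCDHGA12 was lower in both resistant lines by counts, and PCDHGA1 in adriamycin-resistant cells. PCDHGA12 had 114 counts in parental, 79 in adriamycin-resistant and 47 in paclitaxel-resistant cells. It was 2.11-fold lower in adriamycin-resistant cells (1.57 to 2.85) and 3.74-fold lower in paclitaxel-resistant cells (2.64 to 5.37), and its TPM values of 1.68, 1.29 and 0.933 differed less. PCDHGA1 had 33, 12 and 34 counts and was 4.02-fold lower in adriamycin-resistant cells (2.03 to 8.56). In paclitaxel-resistant cells its interval, 0.402 to 1.11 of parental, included no change.

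Among the C-type genes, PCDHGC4 and PCDHGC5 were higher in paclitaxel-resistant than in adriamycin-resistant cells, and the alpha pair was higher than parental in both lines. PCDHGC5 had 25 counts in parental, 60 in adriamycin-resistant and 191 in paclitaxel-resistant cells, and was 4.95-fold higher in paclitaxel-resistant cells (3.26 to 7.85). PCDHGC4 had 24, 29 and 116 counts and was 3.13-fold higher there (2.01 to 5.09). Both had a lower TPM in adriamycin-resistant than in paclitaxel-resistant cells, at 0.890 against 2.37 for PCDHGC5 and 0.425 against 1.82 for PCDHGC4. Summed, the pair was 4.06-fold higher in paclitaxel-resistant cells (3.0 to 5.61), and in adriamycin-resistant cells its interval ran from 0.866 to 1.80 of parental. PCDHGC3, their neighbour, was lower in paclitaxel-resistant cells, as given above. PCDHAC2 had 10, 137 and 91 counts, 9.36-fold higher in adriamycin-resistant cells (4.94 to 20.0) and 5.90-fold higher in paclitaxel-resistant cells (3.07 to 12.7). PCDHAC1 had 76, 202 and 209 counts, 1.82-fold (1.39 to 2.40) and 1.78-fold higher (1.37 to 2.35). Of the 5 C-type genes, 1 passed 2-fold upward in adriamycin-resistant and 3 in paclitaxel-resistant cells.

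The spread of counts over members changed most in beta. PCDHB2 held 67.8% of the beta counts in parental cells, 38.7% in adriamycin-resistant and 56.5% in paclitaxel-resistant cells. The effective number of members, which is 1 over the sum of squared shares and equals the number of members when all are level, was 2.06, 4.85 and 2.82. For alpha it was 4.11, 3.37 and 5.59, and for gamma 4.78, 4.52 and 5.41. Thus beta was the least even cluster in parental and paclitaxel-resistant cells, and alpha in adriamycin-resistant cells. Counts are not divided by length in these shares. By TPM the PCDHB2 share was 66.9%, 36.1% and 55.2%.

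Set directly against each other, paclitaxel-resistant cells had lower levels than adriamycin-resistant cells for more members than the reverse. Of 50 members, 13 lay 2-fold or more below the adriamycin-resistant level and 5 this far above it, with 13.4% lower and 20.0% higher over all genes compared. The median log2 fold was -0.49. All 3 clusters were lower as sums, alpha by 1.99-fold (1.85 to 2.13), beta by 2.07-fold (1.95 to 2.21) and gamma by 1.74-fold (1.68 to 1.80). Relative to the genes beside the clusters, this direction turned, with folds of 1.07, 1.02 and 1.22. Without PCDHA11 the alpha fold was 0.796, and without PCDHB2 the beta fold was 0.342. PCDHB13 was 37.7-fold lower in paclitaxel-resistant cells (18.9 to 88.1) and PCDHB8 29.7-fold lower (18.6 to 50.5). PCDHA11 was 5.03-fold lower (4.37 to 5.82) and PCDHGA7 4.47-fold lower (3.68 to 5.48). The higher members were PCDHA5, PCDHA7, PCDHGA1, PCDHGC4 and PCDHGC5. Of these, PCDHGC4 at 3.80-fold (2.51 to 5.92) and PCDHGC5 at 3.02-fold (2.25 to 4.11) had intervals wholly above 2-fold.

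The genes around the clusters differed too, and in opposite directions in the resistant lines. Of 27 genes listed beside or between the clusters, 25 passed the count minimum. In adriamycin-resistant cells 3 passed 2-fold upward and 1 downward, with a median log2 fold of 0.58. In paclitaxel-resistant cells 0 were higher and 8 lower, with a median of -0.59. SPRY4, which restrains receptor tyrosine kinase signaling, had 410, 1670 and 240 counts. It was 2.78-fold higher in adriamycin-resistant and 2.63-fold lower in paclitaxel-resistant cells. CD14, a coreceptor for bacterial lipopolysaccharide, was the gene at least 2-fold lower in adriamycin-resistant cells, with 755, 94 and 15 counts. PCDH1, a protocadherin outside the clusters, was also below parental there, with 3710, 4999 and 1409 counts and a fold of 0.921.

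The shift was not limited to the nearest genes. Over 597 other genes of chromosome 5 with 100 or more counts, the median log2 fold was 0.26 in adriamycin-resistant and -0.41 in paclitaxel-resistant cells. Between paclitaxel-resistant and adriamycin-resistant cells the median was -0.64 over these genes and -1.09 over the 25 genes beside the clusters. Relative to those 25, the alpha sum was 2.09-fold higher in adriamycin-resistant and 2.36-fold higher in paclitaxel-resistant cells, the gamma sum 1.13-fold and 1.46-fold higher, and the beta sum 1.20-fold and 1.11-fold lower. Relative to them, 24 members passed 2-fold upward in paclitaxel-resistant cells and 1 downward. The part of this regional shift in the levels of the members was not tested.

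**Figure D3:**
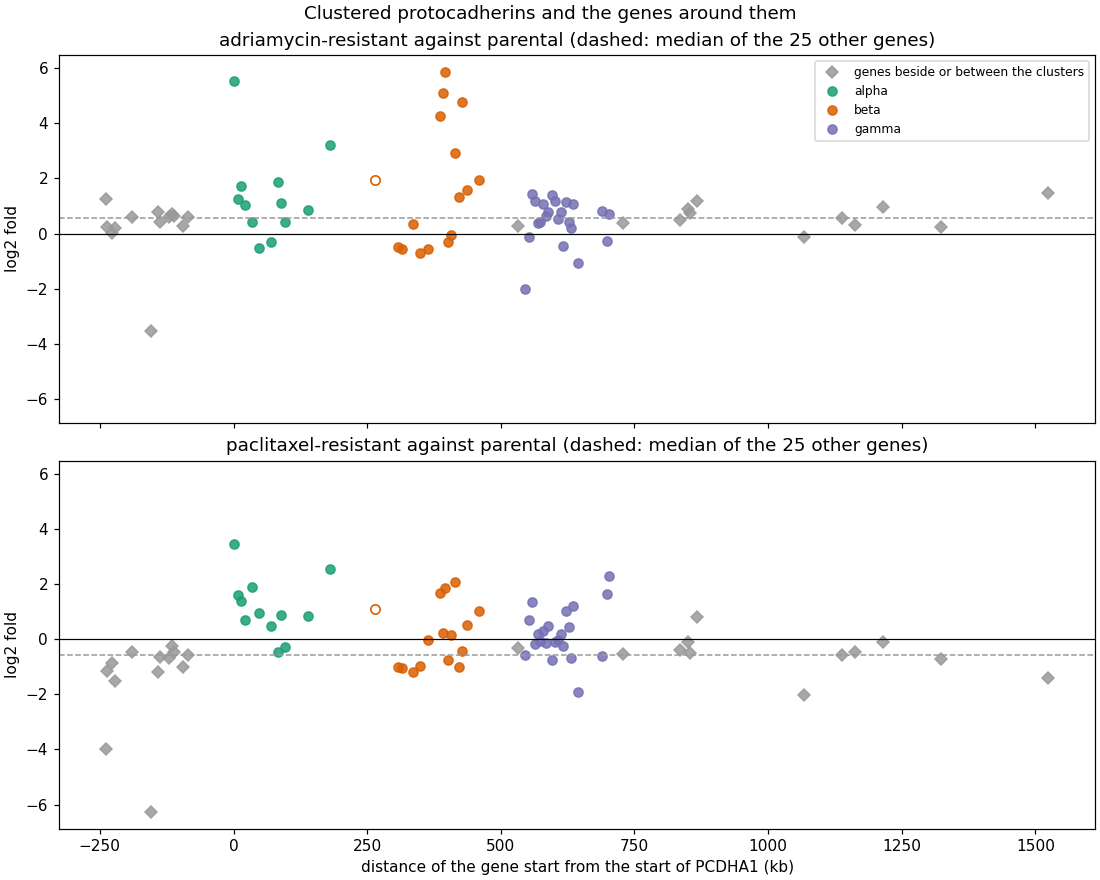
Log2 fold against parental MM468 cells of the 50 members (circles coloured by cluster) and 25 genes beside or between the clusters (grey diamonds), by distance of the gene start from the start of PCDHA1 in kb, with PCDHB1 as an open circle at its lower bound. The dashed line is the median of the grey genes, 0.58 in adriamycin-resistant and -0.59 in paclitaxel-resistant cells.

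Counts and deposited TPM values did not give the same fold for every member. Alpha and gamma entries list 2 or 3 transcripts in the table, so a TPM can change with the transcript assigned as well as with the reads. PCDHAC2 in adriamycin-resistant cells was 9.36-fold higher by counts and 4.32-fold by TPM, and PCDHA1 48.5 against 141. The beta members PCDHB8 and PCDHB13, each listed with 1 transcript, gave close values, with 34.7 and 34.8 for PCDHB8 and 27.9 and 27.3 for PCDHB13. PCDHB16, with 1 parental count, gave 64.2 and 92.0. For paclitaxel-resistant against parental cells, TPM also shifted all genes upward, by a median of 0.32 on the log2 scale, and the members by 0.34. On TPM plus 0.1, 14 members passed 2-fold upward and 1 downward in adriamycin-resistant cells, and 11 and 0 in paclitaxel-resistant cells.

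**Figure D4:**
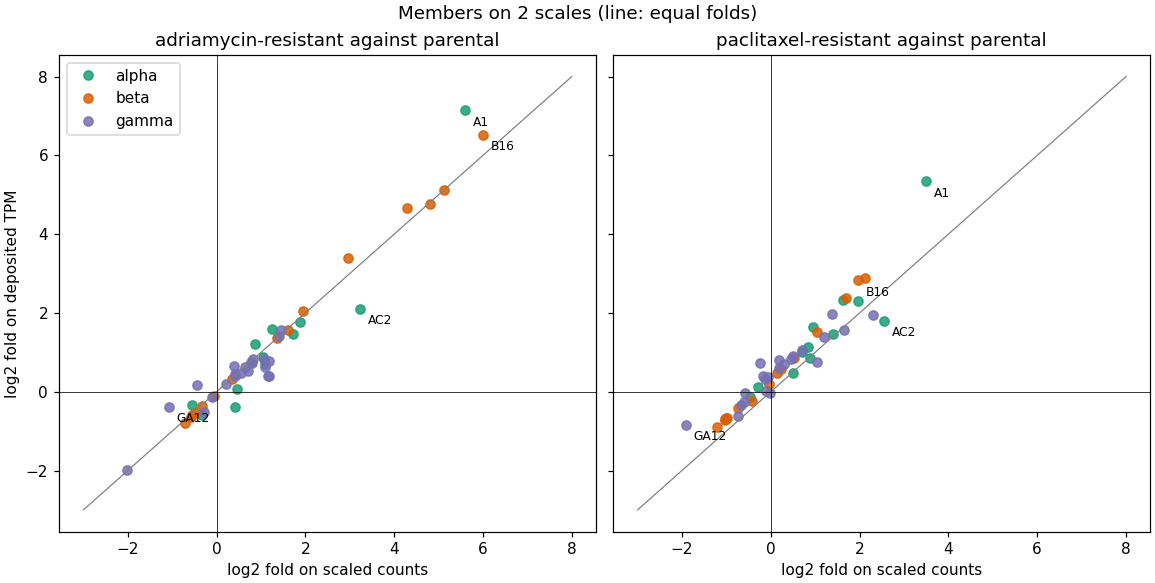
Log2 fold against parental MM468 cells on scaled counts (horizontal) and on deposited TPM (vertical), for adriamycin-resistant (left) and paclitaxel-resistant (right) and for members with reads in both libraries, with a line of equal folds. Most beta members lie close to the line in adriamycin-resistant cells, PCDHA1 lies above it and PCDHAC2 below it, and most members lie above it in paclitaxel-resistant cells.

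Few genes known to take part in choosing or silencing protocadherin promoters passed 2-fold. Of 26 listed, which include CTCF, the cohesin subunits, SMCHD1 and the DNA methyltransferases, 0 passed 2-fold in adriamycin-resistant cells, and 1 was lower in paclitaxel-resistant cells. CTCF, named here for its role, had 1986, 2358 and 2208 counts, with folds of 0.811 and 0.721. WAPL, which releases cohesin from chromatin, was the lower gene, with 3226, 5515 and 2203 counts and a 2.26-fold lower level in paclitaxel-resistant cells (2.14 to 2.39). Among 15 compared genes of 16 listed for partners inside the cell, FYN, a kinase of the Src family, was the gene at least 2-fold changed in either line. It was 4.71-fold higher in adriamycin-resistant cells (4.07 to 5.47) and 2.2-fold higher in paclitaxel-resistant cells (1.88 to 2.58).

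Protocadherins outside the clusters, which are spread over other chromosomes or lie apart on chromosome 5, also differed. Of 22 listed genes of this and related cadherin families, 14 were compared. In adriamycin-resistant cells 4 passed 2-fold upward and 3 downward, and in paclitaxel-resistant cells 5 and 3. PCDH18 had 31, 1101 and 2026 counts, 24.3-fold and 42.4-fold higher. PCDH8 had 751, 101 and 11 counts, 10.9-fold and 105-fold lower. PCDH20, with 52, 0 and 76 counts, was at least 25.4-fold lower in adriamycin-resistant cells. FAT4, a giant cadherin, had 8, 29 and 895 counts, and was 72.6-fold higher in paclitaxel-resistant cells (36.7 to 169). FAT3, of the same family, had 711, 931 and 6669 counts, and DCHS2, a ligand family member for FAT cadherins, had 138, 28 and 103.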

How the data were processed

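Parental, adriamycin-resistant and paclitaxel-resistant cells, with 1 library each, were measured by stranded mRNA sequencing. Read counts per gene were deposited by the authors without normalization, and the TPM and FPKM values beside them were also deposited by the authors. The submitters' processing notes name Trimmomatic 0.39, HISAT2 2.2.1, StringTie 2.2.1 and GRCh38. The strand setting and the handling of reads that match several genes are not given in the sources used here.

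Counts were scaled with TMM in edgeR 4.0.16 (R 4.3.3) over 19561 genes with 10 or more counts in at least 1 of 3 libraries. Log2 folds used a prior count of 0.125. With 1 library per line there were 0 residual degrees of freedom, so the quasi-likelihood fit of edgeR was not possible and no p-value is given. Intervals are exact binomial (Clopper-Pearson) at 95%, from scipy 1.17.1 in Python 3.11.15, with pandas 2.3.3 and matplotlib 3.10.9. A count of 0 was set to 3 counts for bounds. On simulated counts, 100% of genes changed 2.5-fold or more were called in adriamycin-resistant against parental cells, on 17613 genes, with 1.99% of unchanged genes called. DESeq2 1.42.0 size factors, library size, other count minimums, TPM and FPKM were tried as alternatives.

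Values are printed for C-type genes, the 6 members with the most counts in each cluster, members at least 2-fold changed with 50 or more counts in 1 library, and up to 6 such genes of each list. Members with fewer counts were named after their values were seen. Members and lists were chosen with earlier results of these data known. Gene IDs of 44698 of 46427 genes matched RefSeq on GRCh38.p14.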

Additional observations from a re-analysis of the deposited data

Results flagged for a closer look

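Several members lay on opposite sides of parental MM468 cells in the 2 resistant lines. The difference between the lines was not tested in any of these cases, since each line had 1 library, and both folds use the same parental library. PCDHA11 had a fold of 3.66 in adriamycin-resistant and 0.726 in paclitaxel-resistant cells. PCDHGA7 had a fold of 2.67 and 0.596, and PCDHGC3 of 1.76 and 0.657. The summed beta cluster had a fold of 1.25 in adriamycin-resistant and 0.601 in paclitaxel-resistant cells. PCDHB12, with 4, 15 and 3 counts in parental, adriamycin-resistant and paclitaxel-resistant cells, had a log2 fold of 1.34 and -1.01, from counts too low for a firm value.

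The non-coding entries of the clusters, which enter no comparison above, also held reads. PCDHGB8P had 18 counts in parental, 57 in adriamycin-resistant and 22 in paclitaxel-resistant cells. PCDHB18P had 1, 15 and 2 counts. Both are pseudogenes, and reads from near-identical coding members could be counted in them.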

How the results depend on the processing

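With 1 library per line, no replicate could be left out. No paired analysis was possible because there was 1 library per line. Of 84 folds of 28 named members, 0 changed sign with DESeq2 size factors, TMM over the compared libraries or a prior count of 2. By library size 5 changed sign and on TPM plus 0.1 7 did, and 0 of these were 2-fold or more on scaled counts. On TPM plus 0.1, 16 no longer reached 2-fold and 2 newly did. The low depth of most members limits all counts of members.

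For adriamycin-resistant against parental cells, 23 members were higher and 2 lower. The counts became 13 and 1 at 100 or more counts, 8 and 0 at 4-fold, 6 and 0 on TPM plus 1, 14 and 1 on TPM plus 0.1, 3 and 0 on FPKM plus 1, and 12 and 1 on FPKM plus 0.1. For paclitaxel-resistant against parental cells, 15 and 4 became 7 and 1 at 100 or more counts, 5 and 0 at 4-fold, 2 and 0 on TPM plus 1, 0 and 0 on FPKM plus 1, and 7 and 0 on FPKM plus 0.1, with 0 lower on TPM plus 0.1 and 1 lower by library size. For paclitaxel-resistant against adriamycin-resistant cells, 5 and 13 became 0 and 8 at 4-fold, 0 and 5 on TPM plus 1, 0 and 5 on FPKM plus 1, and 3 and 8 on FPKM plus 0.1, with 2 higher at 100 or more counts and 8 lower on TPM plus 0.1. Higher thresholds and larger pseudocounts call fewer members by construction.

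The alternatives relative to the flanking genes and for 16 members with under 25% shared sequence were chosen after seeing the data. Relative to the flanking genes, 12 members were higher and 8 lower in adriamycin-resistant cells, and 24 and 1 in paclitaxel-resistant cells, against parental, and 15 and 8 in paclitaxel-resistant against adriamycin-resistant cells. With little shared sequence the counts were 9 and 0 in adriamycin-resistant cells, 5 higher in paclitaxel-resistant cells, and 0 and 6 between the resistant lines. These 16 members are beta genes apart from PCDHA4 and PCDHA10, whose longest transcripts have 1 exon. PCDHB8, PCDHB10 and all gamma members are outside this set, since the lowest gamma share was 29.7%. It therefore does not check the calls of most alpha and all gamma members. Relative to the flanking genes, the alpha, beta and gamma sums had folds of 2.09, 0.835 and 1.14 in adriamycin-resistant and 2.37, 0.904 and 1.46 in paclitaxel-resistant cells. Between paclitaxel-resistant and adriamycin-resistant cells they were 1.07, 1.02 and 1.22, so that beta in adriamycin-resistant cells and all 3 sums between the resistant lines changed direction. The cause was not tested.

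For adriamycin-resistant against parental cells, the alpha sum was 2.67 on TPM plus 1, 2.53 on FPKM plus 1 and 2.75 without PCDHA11, the beta sum 2.38 without PCDHB2, and the gamma sum 1.61 on TPM plus 1 and 1.62 on TPM plus 0.1. For paclitaxel-resistant against parental cells, the alpha sum was 1.84 by library size, 1.79 on TPM plus 1, 1.88 on TPM plus 0.1, 1.77 on FPKM plus 0.1 and 2.19 without PCDHA11. The beta sum was 0.701 by library size, 0.767 on TPM plus 1, 0.760 on TPM plus 0.1, 0.741 on FPKM plus 1, 0.721 on FPKM plus 0.1 and 0.813 without PCDHB2. The gamma sum was 1.13 by library size, 1.28 on TPM plus 1, 1.28 on TPM plus 0.1, 1.21 on FPKM plus 1, 1.22 on FPKM plus 0.1 and 0.902 without PCDHGB5. For paclitaxel-resistant against adriamycin-resistant cells, in that order of settings, the alpha sum was 0.583, 0.669, 0.655, 0.632, 0.597 and 0.796. The beta sum was 0.559, 0.610, 0.600, 0.572, 0.546 and 0.342, and the gamma sum 0.665, 0.797, 0.795, 0.727, 0.721 and 0.534. With 4 or more counts, 12 alpha members were detected in parental cells. As shares of TPM, PCDHA11 held 36.4% of alpha in parental and 42.9% in adriamycin-resistant cells, PCDHB2 36.1% of beta in adriamycin-resistant cells, PCDHGC3 28.4% and 31.1% of gamma in parental and adriamycin-resistant, and PCDHGB5 30.6% of gamma in paclitaxel-resistant cells.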
